A study of Mus musculus with 35 samples.

Results

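The 4 libraries described here came from mouse embryonic stem cells (ESCs) that had lost *Dnmt1*, the gene of the methyltransferase that copies DNA methylation onto new strands at each division, and that had then been kept in culture. They were the libraries labelled *Dnmt1* KO at day 17 and at day 25 of a deletion time course, 2 for each day, among the 35 libraries of total RNA-seq in the series. They were chosen by genotype and day alone. The question was what changed between these days in cells in which the deletion had been induced long before. WT ESCs of the same days, again 2 libraries a day, served as the controls of the same culture interval, and the 2 libraries of each genotype at day 11 entered the same fit.

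The labels give the background strain as E14 and the cell type as ESC for both genotypes. For the *Dnmt1* conditional knockout the study's methods give a conditional line, *Dnmt1* loxP/loxP on C57BL/6, in which Cre was induced with tamoxifen (4OHT, 800 nM). Cells were grown in serum with LIF, with or without feeder cells, and the labels do not say which libraries had feeders. The series describes 2 biological replicates per group. Nothing in the labels ties a replicate to a separate induction, so p-values measure the spread between these libraries.

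In mammals DNA methylation at CG dinucleotides is set by DNMT3A and DNMT3B and maintained by DNMT1. It silences germline genes, one parental copy of imprinted genes, and genes of the trophoblast, the lineage that forms the placenta and from which normal ESCs are barred. ESCs that have lost methylation are known to survive in culture, whereas differentiated cells without DNMT1 activate the p53 pathway and die. Simple keratins and smooth muscle actin are genes of early epithelial and contractile cells, and the *Zscan4* family marks a short-lived state of ESCs that resembles the 2-cell embryo.

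Values are RPKM, that is, reads on a gene's exons divided by exon length in kilobases and by the mega-reads of its library. The 4 KO libraries held between 29.8 and 30.9 mega-reads, of which 49.1% to 49.9% fell in exons of genes. Across genes, Pearson's r was 0.993 between the KO libraries of day 17, 0.992 between those of day 25, and between 0.965 and 0.967 across the days. All 8 ESC markers were present, from 14.9 to 515 RPKM in every KO library. The 8 fibroblast markers summed to between 0.593 and 0.898 RPKM, mostly from *Thy1*, and *Col1a1*, *Col1a2* and *Col3a1* were each under 0.05 RPKM, so feeder RNA was near 0 on both days.

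*Dnmt1* (chromosome 9 of NCBIM37, 20711650 to 20757317) had 4.25 and 4.20 RPKM at day 17 and 4.40 and 4.04 RPKM at day 25 in KO, a log2 difference of 0.02 (SE 0.15, limma adjusted p 0.935). WT cells had 16.2 and 17.4 RPKM at day 17 and 34.8 and 31.6 RPKM at day 25. The KO libraries of both days thus lay below every WT library and the days overlapped within KO. Reads on the remaining exons of the gene enter this value, since it is summed over the whole gene.

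A log2 difference below is day 25 minus day 17 of log2(RPKM + 0.1), with every library centred on its median, fitted with limma over 12 libraries. The pseudocount of 0.1 understates the change of low genes. Of 11458 genes tested in KO cells, 1255 (11%) rose and 1064 (9.29%) fell between day 17 and day 25 at a Benjamini-Hochberg adjusted p below 0.05, and 3763 had an unadjusted p below 0.05. The median of all tested genes was 0.02. The counts of each gene list below are to be set beside the shares of 11% and 9.29% over all genes. Of the called genes, 275 were lower by more than 1 log2 unit and 160 higher. The largest rises and falls named below are those of called genes with a mean of at least 1 RPKM on the higher day, leaving out gene models with provisional names. Among the 15 largest falls of that kind (log2 -3.66 to -2.62) were smooth muscle actin, simple keratins and trophoblast, placental and *Zscan4* genes, and among the 15 largest rises (1.58 to 2.29) were several germline genes.

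The largest of these falls was that of *Acta2*, smooth muscle actin (chromosome 19, 34315580 to 34329826). It had 11.05 and 11.13 RPKM at day 17 and 0.755 and 0.788 RPKM at day 25, a log2 difference of -3.66 (SE 0.31, limma adjusted p 6.06e-05). The libraries of the 2 days lay far apart and each pair nearly coincided. At day 11 the KO libraries had had 1.16 and 0.593 RPKM, so the day 17 level was a peak between lower days, after a rise of 3.57 from day 11 (limma adjusted p 0.000281). In WT *Acta2* had 0.398 and 0.207 RPKM at day 17 and 0.673 and 0.517 RPKM at day 25. Next came *Sfmbt2* (chromosome 2, 10292137 to 10516880), an imprinted gene of the Polycomb family that is active in the placenta, with 16.9 and 17.5 RPKM at day 17 and 1.51 and 1.37 RPKM at day 25 (log2 -3.47, SE 0.12, limma adjusted p 1.12e-07). *Sfmbt2* fell in WT as well, from 5.12 and 6.27 to 2.79 and 2.57 RPKM (log2 -1.21, limma adjusted p 7.79e-05). Its KO level at day 25 was below that of WT on the same day.

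The promoters of these 2 genes and of the 2 largest named rises, *Scml2* and *Hal*, which are described further on, show the DNA that lies before the start of these genes. The 250 bases before the start of each gene are from RefSeq (GRCm38.p6, another build than the NCBIM37 of the files), and capitals mark CG dinucleotides, the sites on which DNMT1 acts and which read the same on both strands.
Acta2 (chr19:34255374-34255623, minus strand): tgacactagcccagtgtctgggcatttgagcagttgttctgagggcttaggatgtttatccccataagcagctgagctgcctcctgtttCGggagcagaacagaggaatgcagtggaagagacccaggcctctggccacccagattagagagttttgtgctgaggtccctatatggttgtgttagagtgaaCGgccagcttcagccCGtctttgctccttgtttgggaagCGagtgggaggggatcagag
Sfmbt2 (chr2:10370201-10370450, plus strand): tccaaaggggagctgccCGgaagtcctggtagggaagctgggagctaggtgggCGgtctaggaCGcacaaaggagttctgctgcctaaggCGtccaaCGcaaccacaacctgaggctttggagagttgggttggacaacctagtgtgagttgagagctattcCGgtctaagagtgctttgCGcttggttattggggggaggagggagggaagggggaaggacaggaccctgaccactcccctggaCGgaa
Scml2 (chrX:161162500-161162749, plus strand): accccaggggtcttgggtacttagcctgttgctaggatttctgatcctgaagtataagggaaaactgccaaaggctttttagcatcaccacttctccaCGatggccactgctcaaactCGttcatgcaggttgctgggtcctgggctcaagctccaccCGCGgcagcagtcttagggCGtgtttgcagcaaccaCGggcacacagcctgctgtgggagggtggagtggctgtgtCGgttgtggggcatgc
Hal (chr10:93488518-93488767, plus strand): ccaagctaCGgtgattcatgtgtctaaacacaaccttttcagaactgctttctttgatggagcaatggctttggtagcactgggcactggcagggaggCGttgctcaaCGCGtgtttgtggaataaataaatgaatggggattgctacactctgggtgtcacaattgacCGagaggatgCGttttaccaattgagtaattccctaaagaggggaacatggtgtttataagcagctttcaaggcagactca
*Acta2* had 4 CG in this window, *Sfmbt2* 8, *Scml2* 7 and *Hal* 6, against a median of 6 over the same window of all 27025 genes in the table, of which 91.7% hold at least 1. Over the 7778 tested genes with a promoter in the table the median was 16, above all 4 values. These 7778 are an incomplete set of the tested genes, so no conclusion is drawn from that. A comparison of CG number between genes that rose and fell was void, since only 67.9% of the tested genes had a promoter under their symbol, below the 80% required.

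**Figure D1:**
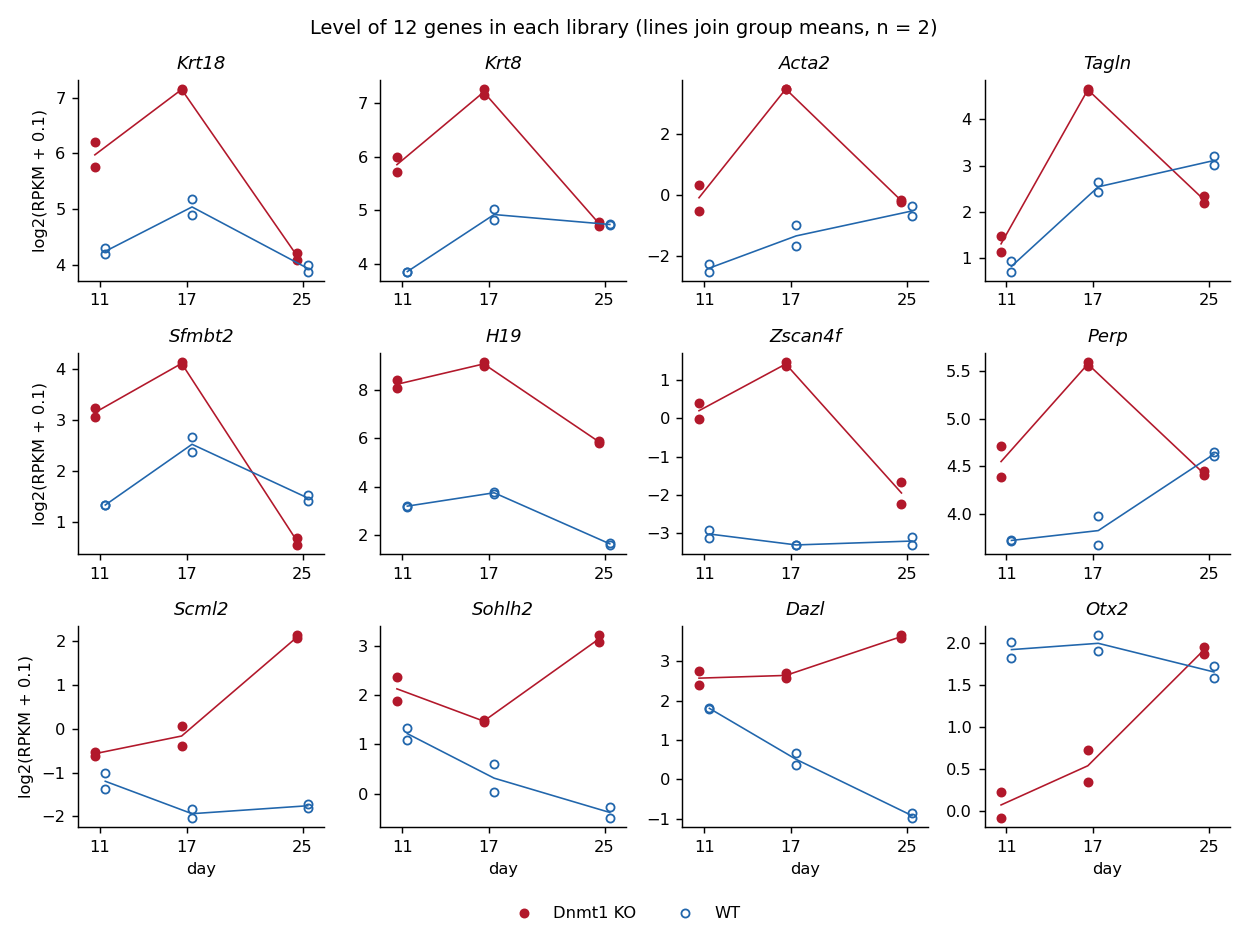
Level of 12 genes as log2(RPKM + 0.1) (y axis) on days 11, 17 and 25 (x axis), with 1 point for each library (filled red, *Dnmt1* KO; open blue, WT) and lines through the group means. Keratins, *Acta2*, *Tagln*, *Sfmbt2*, *H19*, *Zscan4f* and *Perp* stood at a peak in KO cells on day 17 and were lower in both libraries of day 25, while *Scml2*, *Sohlh2*, *Dazl* and *Otx2* were highest on day 25.

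Trophoblast genes and simple keratins were lower at day 25. Of 16 listed genes 10 passed the filter on low values, and of these 9 fell and none rose, with a median log2 difference of -2.31. *Hand1* and *Plac1* exceeded 1 RPKM in no WT or KO library of days 11, 17 and 25 but those of KO day 17, and *Krt7*, *Wnt7b* and *Ascl2* in none but those of KO days 11 and 17, so that for these members the filter favoured a fall and their number is no support for the direction. Without the filter 16 were tested, 9 fell and the median was -1.26. *Krt8* and *Krt18* encode the paired keratins of simple epithelia. *Krt18* (chromosome 15, 101858647 to 101862457) had 142 and 140.3 RPKM at day 17 and 18.6 and 17.06 RPKM at day 25, 7.93-fold lower (log2 -2.95, SE 0.15, limma adjusted p 2.51e-06). *Krt8* (chromosome 15, 101827142 to 101834773) had 142 and 154 RPKM at day 17 and 27.3 and 26.2 RPKM at day 25, 5.54-fold lower (log2 -2.44, limma adjusted p 2.51e-06). At day 17 both stood above every WT library. At day 25 *Krt8* overlapped with WT (26.3 and 26.9 RPKM) and *Krt18* lay just above it (15.9 and 14.7 RPKM).

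The less abundant members moved the same way. *Krt19* went from 16.5 and 19.7 to 4.18 and 3.5004 RPKM and *Krt7* from 2.53 and 2.46 to 0.229 and 0.194 RPKM. *Hand1*, a factor of trophoblast giant cells, had 1.57 and 1.34 RPKM at day 17 and 0.0505 and 0.180 RPKM at day 25, the latter from 3 and 11 reads. *Plac1*, a placental gene of the X chromosome, had 1.297 and 1.59 RPKM at day 17 and 0.0963 and 0.0468 RPKM at day 25, the latter from 4 and 2 reads, so its log2 difference of -3.15 is set largely by the pseudocount. *Tcfap2c*, which encodes the trophoblast and germ cell factor TFAP2C, went from 8.12 and 7.98 to 3.18 and 3.202 RPKM (log2 -1.28), *Wnt7b* from 2.12 and 2.30 to 0.586 and 0.592 RPKM and *Ascl2*, an imprinted trophoblast factor, from 2.39 and 1.52 to 0.855 and 0.547 RPKM. *Ets2* alone among the list did not pass the test (-0.52, limma adjusted p 0.0634).

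The defining factors of trophoblast were low on both days. *Cdx2* had 0.343 and 0.304 RPKM at day 17 and 0.163 and 0.0144 RPKM at day 25, *Elf5* 0.110 and 0.0501 RPKM at day 17 and 0 and 0.0167 RPKM at day 25, and the 3 trophoblast markers *Cdx2*, *Elf5* and *Krt7* summed to between 2.82 and 2.98 RPKM at day 17 and between 0.226 and 0.392 RPKM at day 25. *T*, a mesoderm factor, had 0.769 and 0.679 RPKM at day 17 and 0.0145 and 0.0423 RPKM at day 25. In bulk libraries fewer cells of a type and less RNA per cell cannot be told apart, and the part of a cell subset in these falls was not tested. With any of the 4 libraries left out, 8 or 9 falls were called. Restricting the test to genes with a mean RPKM of at least 1 left 5 members, of which 4 fell.

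Genes of the actin cytoskeleton driven by SRF and YAP, factors that answer to actin dynamics and cell tension, were split. Of 16 tested 7 fell and 2 rose (median -0.33). Besides *Acta2*, *Tagln* (transgelin) went from 24.5 and 25.16 to 4.98 and 4.51 RPKM (log2 -2.34, SE 0.15, limma adjusted p 1.38e-05). The tropomyosin genes *Tpm1* and *Tpm2* went from 36.9 and 39.7 to 12.9 and 13.2 RPKM and from 4.03 and 3.98 to 1.63 and 1.97 RPKM, and *Thbs1*, thrombospondin, from 2.11 and 1.84 to 0.531 and 0.521 RPKM. *Cnn2* (-0.49) and *Ctgf* (-0.36) fell less. *Flna* (0.42) and *Vcl* (0.44), which encode filamin A and vinculin, rose, and *Srf* itself had 5.16 and 5.06 RPKM at day 17 and 5.03 and 4.89 RPKM at day 25. *Cyr61* (-0.35, limma adjusted p 0.068) and *Amotl2* (-0.32, 0.0652), common YAP targets, did not pass the test. With any library left out no rise and between 4 and 6 falls were called.

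The genes of the 2-cell state were lower at day 25. Of 25 listed genes 20 were in the table and 7 passed the filter, and 6 of these fell to at most 0.688 RPKM (median log2 difference -2.39). *Zscan4f* had 2.69 and 2.50 RPKM at day 17 and 0.111 and 0.215 RPKM at day 25, *Zscan4c* 2.11 and 1.95 RPKM at day 17 and 0.190 and 0.184 RPKM at day 25 and *Zscan4d* 3.23 and 3.55 RPKM at day 17 and 0.523 and 0.688 RPKM at day 25. The deubiquitinase gene *Dub3* went from 1.79 and 2.78 to 0.311 and 0.362 RPKM, and the predicted genes *Gm8300* and *Gm5662* from 1.22 and 1.69 to 0.126 and 0.263 RPKM and from 2.001 and 2.24 to 0.297 and 0.433 RPKM. *Dub1a*, another copy of the same deubiquitinase family, which was not on the list, went from 1.84 and 1.82 to 0.323 and 0.125 RPKM. *Eif1a*, the only tested member that every cell uses, had a log2 difference of -0.18 (limma adjusted p 0.27). These families have near-identical copies and each value is uncertain. The 6 members that fell passed the filter through KO libraries, so their number is no support for the direction. *Dub1a* exceeded 1 RPKM only in the KO libraries of day 17, so its fall is no added support either. Without the filter 20 members were tested and 18 fell, and with a mean RPKM of at least 1 only *Eif1a* was left.

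**Figure D2:**
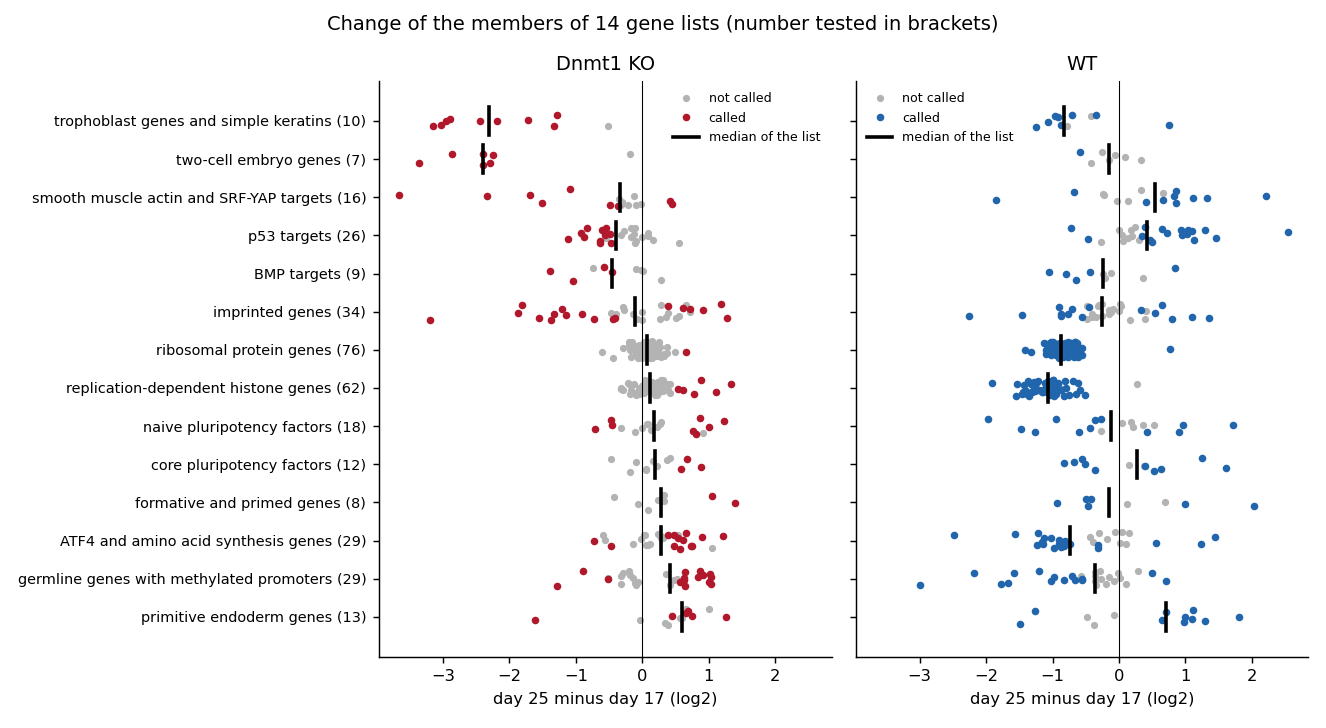
Log2 difference of day 25 minus day 17 (x axis) for each tested member of 14 gene lists (rows, number tested in brackets) in *Dnmt1* KO (left) and WT cells (right). Coloured points passed the test at an adjusted p below 0.05, grey points did not, and bars mark the median of a list. Trophoblast genes with keratins (-2.31) and 2-cell genes (-2.39) have the lowest KO medians, and the ribosomal protein and histone genes lie near 0 in KO and mostly below 0 in WT.

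Imprinted genes went both ways. Of 34 tested 12 fell and 6 rose (median -0.11), and with 1 library left out between 7 and 9 falls and 1 or 2 rises were called. The falls were large at the domains of chromosome 7. *H19*, a maternally expressed noncoding RNA (chromosome 7, 149761434 to 149764048), had 507 and 561 RPKM at day 17 and 58.3 and 56.2 RPKM at day 25, 9.33-fold lower (log2 -3.19, SE 0.12, limma adjusted p 2.53e-07). It was still above WT, which had 3.14 and 2.95 RPKM at day 25. *Igf2*, its paternally expressed neighbour and a fetal growth factor, went from 0.930 and 0.941 to 0.226 and 0.137 RPKM (log2 -1.87), so both genes of the pair fell. *Peg3*, a paternally expressed zinc finger gene, went from 48.7 and 48.3 to 18.4 and 18.2 RPKM (log2 -1.37, limma adjusted p 4.79e-05). *Cdkn1c*, an inhibitor of cyclin-dependent kinases, went from 7.197 and 8.08 to 3.34 and 3.02 RPKM.

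On chromosome 6 the neighbours *Peg10* and *Sgce* fell, from 138 and 111 to 37.1 and 31.9 RPKM and from 3.09 and 3.47 to 1.26 and 1.54 RPKM. *Peg10* derives from a retrotransposon and is needed for the placenta. *Grb10*, a brake on growth factor receptors, went from 3.77 and 3.57 to 2.23 and 2.05 RPKM (log2 -0.72) in KO, whereas WT libraries had 32.1 and 32.7 RPKM at day 25. *Plagl1* (-0.91), *Snrpn* (-0.44), *Impact* (-0.42) and *Xlr3c* (-1.55) also fell.

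Noncoding RNAs of the *Dlk1-Dio3* domain on chromosome 12 went up instead. *Rian* went from 40.1 and 37.9 to 57.2 and 59.6 RPKM (log2 0.61, limma adjusted p 0.0422), and *Mirg* from 5.08 and 5.49 to 8.40 and 8.84 RPKM. The coding gene *Rtl1*, which overlaps an antisense RNA, rose from 2.48 and 2.27 to 4.33 and 4.59 RPKM, while *Meg3*, with 1.82 and 1.65 RPKM at day 17 and 2.67 and 2.24 RPKM at day 25, did not pass the test (0.277 by limma). All of these were under 0.05 RPKM in the WT libraries of both days. *Ddc* (1.18), *Mest* (0.39) and *Xlr4a* (1.28) were the other rises. The *Xlr* genes have near-identical copies and are uncertain.

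Targets of p53, the factor that answers to DNA damage and other stress, were lower at day 25. Of 26 tested 11 fell and none rose (median -0.39). *Perp*, a membrane protein of cell death, went from 46.8 and 48.1 to 21.7 and 21.0 RPKM (log2 -1.12, SE 0.13, limma adjusted p 0.000372). *Cdkn1a*, which encodes the cell cycle inhibitor p21, went from 18.9 and 18.7 to 11.8 and 11.9 RPKM (log2 -0.64, limma adjusted p 0.00103). *Mdm2*, whose product degrades p53, went from 20.2 and 20.2 to 12.6 and 13.0 RPKM and *Trp53inp1* from 62.2 and 66.1 to 34.2 and 36.2 RPKM. *Polk* (-0.92), *Dcxr* (-0.87), *Zfp365* (-0.61), *Plk2* (-0.56), *Tnfrsf10b* (-0.55), *Ddit4l* (-0.49) and *Eda2r* (-0.48) were the other falls. The cell death genes *Bax* (-0.27), *Bbc3* (-0.54) and *Pmaip1* (0.08) did not pass the test. With 1 library left out between 6 and 8 falls were called, and in a fit over all 34 WT and KO libraries 7.

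In the *Gadd45* family of stress genes *Gadd45g* went from 3.39 and 2.73 to 1.32 and 1.28 RPKM and *Gadd45b* from 15.3 and 17.003 to 10.16 and 8.56 RPKM, while *Gadd45a* had 8.08 and 7.44 RPKM at day 17 and 8.97 and 10.9 RPKM at day 25 (log2 0.38, limma adjusted p 0.0541). Of 16 chaperone genes 4 fell and none rose, namely the small heat shock genes *Cryab* (-1.82) and *Hspb1* (-0.72), *Hsph1* (-0.79) and *Hsp90b1* (-0.36), and with 1 library left out 2 or 3 were called. Of 9 BMP targets 4 fell, *Id2* (from 27.6 and 32.5 to 11.3 and 10.9 RPKM), *Id4* (-1.05), *Id3* (-0.46) and the ligand gene *Bmp4* (-0.57), and *Id1* did not pass the test (0.28). With 1 library left out only 1 or 2 BMP genes were called. *Ifitm1* and *Ifitm3*, interferon-inducible membrane genes that are also active in ESCs, went from 52.5 and 57.3 to 15.6 and 14.9 RPKM and from 39.9 and 37.0 to 13.5 and 14.1 RPKM, while *Eif2ak2*, the kinase that senses double-stranded RNA, rose from 1.56 and 1.60 to 2.83 and 3.15 RPKM. Outside these lists, the calcium-binding protein gene *S100a13* fell from 8.41 and 9.24 to 1.08 and 1.05 RPKM (log2 -2.91, limma adjusted p 1.38e-05) and the serpin gene *Serpinb9e*, which has near-identical copies, from 1.33 and 1.296 to 0.105 and 0.0850 RPKM. *Serpinb9e* exceeded 1 RPKM only in the KO libraries of days 11 and 17, so for it the filter favoured a fall.

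Several of the largest rises were germline genes. *Scml2* (chromosome X, 157555125 to 157696145), a Polycomb-group gene of the male germline, had 0.664 and 0.944 RPKM at day 17 and 4.10 and 4.29 RPKM at day 25, 5.21-fold higher (log2 2.29, SE 0.24, limma adjusted p 0.000165). Its day 11 libraries had 0.596 and 0.554 RPKM and no WT library of days 17 and 25 exceeded 0.206 RPKM, so day 25 in KO stood alone. *Scml2* and *Tex12*, and further on *Rhox10*, *Trpa1*, *Cpn1* and *Nmi*, exceeded 1 RPKM in none of the 12 libraries but those of KO day 25. For these genes the filter favoured a rise, so their number is no support for the direction. *Sohlh2*, a transcription factor of early germ cells, went from 2.71 and 2.64 to 9.17 and 8.38 RPKM (log2 1.70, SE 0.21, limma adjusted p 0.000464). *Clgn*, a chaperone of the testis, went from 0.827 and 0.894 to 3.92 and 3.34 RPKM. *Tex12*, a part of the synaptonemal complex that joins chromosomes in meiosis, went from 0.524 and 0.530 to 2.12 and 2.17 RPKM on 10 and 10 reads at day 17 and 39 and 41 reads at day 25, and its call was lost when any of the 4 libraries was left out.

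Of 47 listed germline genes with methylated promoters 29 passed the filter, and of these 12 rose and 3 fell (median 0.42). The RNA-binding protein gene *Dazl* went from 5.91 and 6.404 to 12.1 and 12.6 RPKM (log2 1.02, limma adjusted p 0.00135), and *Tex19.1*, a gene that restrains transposons, from 31.3 and 35.7 to 68.3 and 67.0 RPKM. Among genes of the piRNA pathway *Piwil2* rose from 3.03 and 3.34 to 6.06 and 5.84 RPKM, *Asz1* from 0.902 and 1.11 to 1.95 and 2.18 RPKM and *Ddx4* from 3.097 and 2.87 to 4.35 and 4.44 RPKM. The meiotic genes *Stag3* (0.64), *Smc1b* (0.65), *Sycp1* (0.63), *Syce1* (0.63) and *Tex11* (0.85) rose as well, as did *Slc25a31* (1.04) and *Taf7l* (0.87).

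Not every germline gene followed. *Cox7b2*, a testis form of a respiratory subunit, fell from 20.2 and 17.99 to 7.13 and 8.07 RPKM, and *Rpl39l* (-0.89) and *Rpl10l* (-0.51), testis copies of ribosomal protein genes whose values are uncertain, fell as well. *Hormad1* had 17.4 and 17.8 RPKM at day 17 and 15.7 and 15.5 RPKM at day 25, *Fkbp6* 6.89 and 6.50 RPKM at day 17 and 4.78 and 4.36 RPKM at day 25 and *Sycp3* 1.76 and 2.30 RPKM at day 17 and 1.46 and 1.68 RPKM at day 25, and none of these passed the test. With any 1 of the 4 libraries left out between 5 and 7 rises were called, and 8 in the fit over 34 libraries.

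The reproductive homeobox genes of the *Rhox* cluster on the X chromosome ran in both directions. *Rhox6* and *Rhox9*, which are active in placenta and germ cells, went from 41.3 and 40.3 to 5.92 and 6.01 RPKM and from 11.6 and 12.8 to 1.40 and 1.14 RPKM (log2 -2.73 and -3.14). Both also fell in WT, with log2 differences of -2.06 and -2.37. The difference between the genotypes passed the test for *Rhox9* (limma adjusted p 0.0442) and not for *Rhox6* (0.0663). *Rhox1* fell from 2.67 and 3.08 to 1.52 and 1.07 RPKM. *Rhox10*, a gene of spermatogonia, rose from 0.241 and 0.244 to 1.54 and 1.04 RPKM on 7 and 7 and 43 and 30 reads, but the call was lost without the filter and without any of the 4 libraries. *Rhox13* had 1.11 and 0.972 RPKM at day 17 and 3.46 and 3.02 RPKM at day 25 (log2 1.58, limma adjusted p 0.0538). The other 25 genes of the cluster were in the table but did not pass the filter, and the family is uncertain because its copies are alike.

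The other large rises had varied roles. *Hal*, histidine ammonia-lyase, which starts the breakdown of histidine (chromosome 10, 92951513 to 92982049), had 0.874 and 0.702 RPKM at day 17 and 3.32 and 3.79 RPKM at day 25 (log2 2.07, SE 0.19, limma adjusted p 9.28e-05). *Trpa1*, an ion channel, went from 0.432 and 0.468 to 2.10 and 2.17 RPKM, *Islr2* from 0.216 and 0.298 to 1.27 and 1.24 RPKM and *Ppp3cc*, a testis form of the phosphatase calcineurin, from 0.298 and 0.513 to 1.88 and 1.69 RPKM. For *Ppp3cc* the day 11 libraries had 1.68 and 1.16 RPKM, so day 17 was a low point between higher days. *Islr2* and *Exoc3l*, another of the 15, also rose in WT, with log2 differences of 1.27 and 1.37. Their differences between the genotypes did not pass the test (limma adjusted p 0.132 and 0.303). *Clgn* and *Ripk3* rose in WT too, by less, with log2 differences of 0.61 and 0.46 (limma adjusted p 0.0186 and 0.0177). For these 2 genes the difference between the genotypes passed the test (limma adjusted p 0.00393 and 0.00254). *Ripk3*, the kinase of necroptosis, went from 2.35 and 2.35 to 7.29 and 6.96 RPKM (log2 1.59, limma adjusted p 6.73e-05), and *Inhbb*, which encodes a subunit of activin, from 0.554 and 0.800 to 2.31 and 2.12 RPKM. *Exoc3l* (1.73), *Cpn1* (1.83), *Vash2* (1.59) and *Nmi* (1.58) completed the 15, and *Cpn1* and *Nmi* each lost the call in 3 of the 4 fits without 1 library.

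The pluripotency network shifted in part. Among 18 naive factors 5 rose and 3 fell (median 0.18), beside 11% and 9.29% over all genes, and 10 were not called. *Gbx2* went from 3.48 and 3.32 to 8.11 and 7.79 RPKM (log2 1.23, limma adjusted p 2.01e-05), *Nr5a2* from 4.09 and 3.90 to 7.22 and 8.83 RPKM, *Klf4* from 4.32 and 3.65 to 7.32 and 6.50 RPKM, and, of LIF signalling, *Stat3* from 2.69 and 2.58 to 4.72 and 4.19 RPKM and *Socs3* from 10.8 and 10.05 to 19.02 and 18.5 RPKM. For *Socs3* day 11 had 17.8 and 17.3 RPKM, near the level of day 25. *Dppa3* (-0.71), *Tcl1* (-0.47) and *Manba* (-0.46) fell. With any 1 library left out 4 rises and at most 1 fall were called. *Nanog*, with 158 and 169 RPKM at day 17 and 155 and 144 RPKM at day 25, and *Esrrb* (0.22) and *Zfp42* (0.28) did not pass the test. Of the 5 rises 4 lie on chromosomes 1 and 11, whose medians were above 0, as described below.

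Among 12 core factors 3 rose and none fell, beside 11% and 9.29% over all genes. *Tdgf1*, a Nodal coreceptor gene, went from 257 and 269 to 408 and 418 RPKM, *Lin28a* from 46.2 and 46.4 to 68.0 and 67.9 RPKM and *Foxd3* from 2.11 and 1.78 to 4.06 and 3.204 RPKM. *Pou5f1* had 162 and 172 RPKM at day 17 and 225 and 214 RPKM at day 25 (log2 0.42, limma adjusted p 0.054) and *Sox2* 59.9 and 65.7 RPKM at day 17 and 56.9 and 57.9 RPKM at day 25. Among 8 tested formative and primed genes, which mark the step after the naive state, *Otx2* rose from 1.18 and 1.56 to 3.58 and 3.78 RPKM (log2 1.40, limma adjusted p 0.000443) and *Dnmt3a* from 2.14 and 2.15 to 4.76 and 4.22 RPKM. For *Otx2* both KO libraries of day 25 lay above the WT libraries of that day, 3.23 and 2.90 RPKM, whereas those of day 17 lay below.

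*Dnmt3a* was also the largest rise among 18 genes of DNA methylation, of which 3 rose and 2 fell, shares near those over all genes (11% and 9.29%). Leaving out 1 library gave 1 or 2 rises and 1 fall. *Dnmt3a* had 2.14 and 2.15 RPKM at day 17 and 4.76 and 4.22 RPKM at day 25 (log2 1.06, limma adjusted p 0.000236). *Uhrf1*, which brings DNMT1 to new DNA, rose from 33.4 and 35.5 to 51.4 and 44.7 RPKM, and the dioxygenase gene *Tet2* from 10.99 and 11.8 to 13.5 and 13.7 RPKM. *Zbtb33*, which encodes the methyl-CG binding factor Kaiso, and *Mbd2*, a methyl-CG binding protein gene, fell, from 5.36 and 5.08 to 3.004 and 2.90 RPKM and from 2.71 and 2.75 to 1.93 and 1.82 RPKM. *Dnmt3b*, with 22.6 and 21.8 RPKM at day 17 and 20.7 and 21.1 RPKM at day 25, and *Dnmt3l*, with 56.4 and 58.1 RPKM at day 17 and 45.6 and 41.4 RPKM at day 25, did not pass the test. Among 20 Polycomb genes 5 fell, led by *Bmi1* (-0.98) and *Phf19* (-0.79), and *Rnf2* rose (0.57), on chromosome 1. With any 1 library left out 2 falls and no rise were called. Among 25 genes of H3K9 methylation and transposon repression *Zfp809*, a repressor of retroviruses, fell (-0.77) and *Setdb1* had 9.74 and 10.4 RPKM at day 17 and 10.6 and 10.8 RPKM at day 25.

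Primitive endoderm genes had the highest KO median of any list with 10 or more tested genes, 0.61, with 5 of 13 higher and 1 lower. WT moved the same way over these days, with 8 of 13 higher and 2 lower (median 0.71). The difference between the genotypes was positive for 3 and negative for 2 (median -0.31), so the rise was not particular to KO. *Gata4* went from 0.331 and 0.644 to 1.203 and 1.27 RPKM. Its day 11 libraries had 1.25 and 1.94 RPKM (log2 -1.56 from day 11 to day 17, limma adjusted p 0.0046), so day 17 was a low point between higher days. *Srgn* went from 1.97 and 2.07 to 3.66 and 3.16 RPKM and *Cubn* from 1.01 and 0.916 to 1.48 and 1.61 RPKM, and the basement membrane genes *Col4a1* and *Sparc* from 7.91 and 8.32 to 13.96 and 11.8 RPKM and from 27.8 and 27.7 to 39.1 and 35.1 RPKM. These 4 genes had been higher still at day 11, with 9.63 and 5.64, 3.55 and 5.08, 16.5 and 24.7 and 50.2 and 48.0 RPKM in that order. *Apoe*, a lipid carrier gene that is also on this list, fell from 252 and 256 to 85.3 and 77.2 RPKM. *Gata6* had 0.658 and 0.502 RPKM at day 17 and 1.05 and 0.848 RPKM at day 25 and *Lama1* 2.67 and 2.48 RPKM at day 17 and 5.48 and 4.92 RPKM at day 25, with no library of one day within the range of the other, but neither passed the test. The 4 primitive endoderm markers summed to between 1.54 and 1.81 RPKM at day 17 and between 3.25 and 3.51 RPKM at day 25 in KO. In WT they summed to between 1.39 and 1.76 RPKM at day 17 and between 3.39 and 3.63 RPKM at day 25, and none was at 0. Their part in the rises was not tested, and with 1 library left out 0 to 2 rises were called.

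Genes of amino acid synthesis under the stress factor ATF4 rose in 11 of 29 cases and fell in 2 (median 0.28). *Chac1*, which degrades glutathione, went from 0.869 and 0.839 to 2.11 and 2.01 RPKM (log2 1.21, limma adjusted p 0.00099), *Asns*, asparagine synthetase, from 30.1 and 29.2 to 49.8 and 48.1 RPKM, and *Shmt2*, of mitochondrial serine use, from 12.3 and 11.8 to 19.7 and 19.6 RPKM. *Psat1* (0.48), *Aars* (0.90), *Trib3* (0.61), *Pycr1* (0.54) and *Slc3a2* (0.39) rose too, and *Cth* (-0.72) and *Cebpb* (-0.46) fell. *Atf4* itself had 92.2 and 93.0 RPKM at day 17 and 94.0 and 85.1 RPKM at day 25. Day 17 was a low point for *Chac1* and *Asns*, whose day 11 libraries had 1.73 and 2.48 and 63.4 and 49.3 RPKM. With 1 library left out between 5 and 7 rises were called. In cholesterol synthesis 5 of 22 genes rose by 0.40 to 0.67 and *Tm7sf2* fell, and with 1 library left out at most 1 rise was called.

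Genes of FGF-ERK signalling, which pushes ESCs out of the naive state, split 3 up and 4 down among 21, beside 11% and 9.29% over all genes. *Etv4* went from 12.1 and 11.9 to 26.0 and 26.1 RPKM, the phosphatase gene *Dusp4* from 3.24 and 2.61 to 7.09 and 6.13 RPKM and *Ier2* from 13.0 and 13.3 to 24.4 and 22.6 RPKM. *Jun* went from 2.23 and 2.32 to 1.22 and 0.706 RPKM, the receptor gene *Fgfr2* from 4.93 and 4.84 to 2.68 and 2.68 RPKM, and the feedback inhibitor genes *Spry1* and *Spry2* fell by 0.98 and 0.35 on the log2 scale. *Dusp6*, *Fgf4* and *Myc* did not pass the test. Of 28 cell cycle genes tested 5 rose and 3 fell, beside 11% and 9.29% over all genes, and 20 were not called. The falls were the inhibitors *Cdkn1a*, *Cdkn1c* and *Cdkn2b* (from 2.60 and 2.68 to 1.18 and 1.29 RPKM). The rises were the replication genes *Mcm2* (0.42), *Mcm3* (0.73) and *Mcm5* (0.96), and *Ccnd1* (0.52) and *Cdc20* (0.55).

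Housekeeping groups showed few calls. Of 76 ribosomal protein genes 1 rose, of 62 replication-dependent histone genes 6 rose, of 71 respiratory chain genes 2 rose and 4 fell, and of 277 *Zfp* zinc finger genes 18 rose and 21 fell. With 1 library left out no ribosomal protein gene, 1 or 2 histone genes, and 5 to 7 rises and 7 to 13 falls of *Zfp* genes were called. None of 13 mitochondrially encoded genes passed the test. The small RNA machinery showed *Lin28a* and *Lin28b* (0.38) as its only calls among 15, and *Dicer1* had 6.97 and 6.56 RPKM at day 17 and 7.07 and 6.79 RPKM at day 25.

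The counts of the remaining lists are to be set beside the shares over all genes, 11% higher and 9.29% lower. Many of these lists had few tested genes, so a low count is not a low share. Of 17 Nodal pathway genes 1 rose and 2 fell, of 7 Wnt targets 2 rose and none fell, and of 28 genes of glycolysis and hypoxia 4 rose and 1 fell. Among 13 double-stranded RNA and interferon genes *Ddx58* was the other rise (0.37), and among 25 genes of H3K9 methylation *Ehmt2* (-0.35) and *Cbx5* (-0.34) were the other falls. Leaving out 1 library gave no rise in the Nodal or glycolysis lists and 0 to 2 in the Wnt list. Lists of lineage and matrix genes were mostly below the filter. Of 5 tested germ layer genes 1 rose and 1 fell, as did 1 and 1 of 7 fibroblast genes, 1 and 1 of 5 collagen chains and 1 and 1 of 8 nuclear long RNAs. The single tested *Hox* gene and the single tested protocadherin gene did not pass the test. *Dppa3* was the only call among 4 *Dppa* genes and 1 of 2 *Prame* genes fell. On the Y chromosome *Ube1y1* (-1.16) and *Zfy1* (-1.05) fell among 6 tested, and both have a near-identical copy and are uncertain.

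The rises were unevenly spread over the genome. Chromosomes 1, 8, 11 and 14 held 2613 (22.8%) of the genes tested, but 701 of the 1255 rises (55.9%) and 103 of the 1064 falls (9.68%). These 4 chromosomes were picked after their values were seen, so the counts are a description with no test. On the rest of the genome 554 genes rose and 961 fell.

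On chromosome 1, 261 of 629 tested genes rose and 20 fell, and the median log2 difference was 0.41. The 4 pairs of a day 25 with a day 17 library gave between 0.39 and 0.42. On chromosome 8, 214 of 627 rose and 11 fell, with a median of 0.36 and pairs between 0.34 and 0.37. Chromosomes 11 and 14 had medians of 0.17 each, with 154 of 943 genes higher and 36 lower, and 72 of 414 higher and 36 lower. The 16 other chromosomes, the remaining autosomes and X, had medians between -0.08 and 0.04, and every pair of KO libraries placed chromosomes 1 and 8 above all of them.

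**Figure D3:**
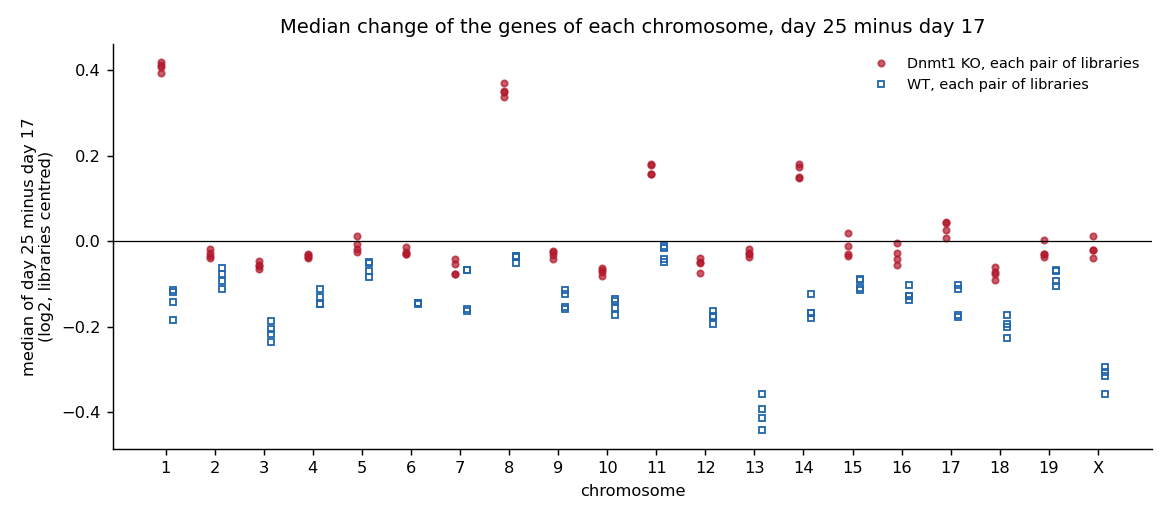
Median log2 difference of day 25 minus day 17 over the tested genes of each chromosome (x axis, chromosomes 1 to 19 and X), with 1 point for each of the 4 pairs of a day 25 and a day 17 library of *Dnmt1* KO (filled red) and of WT (open blue squares). In KO, chromosomes 1 (0.39 to 0.42) and 8 (0.34 to 0.37) stand above all others, 11 and 14 follow, and WT shows no chromosome above 0.

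The shift ran along the length of chromosomes 1, 8 and 11. In windows of 10 megabases with at least 20 tested genes, all 14 windows of chromosome 1 had a median above 0, from 0.32 to 0.53, as had all 11 of chromosome 8 (0.17 to 0.50), all 12 of chromosome 11 (0.08 to 0.28) and all 6 of chromosome 14 (0.12 to 0.22). On the other chromosomes 51 of 160 windows lay above 0 and 2 above 0.3. Both of these were at the distal end of chromosome 17. From 73186044 to 95164201 of that chromosome, 33 of 59 tested genes rose and 1 fell (median 0.61, 55 of 59 above 0), against 39 and 42 of 535 genes in the rest (median -0.01). Chromosome 14 broke the other way, with a median of 0.19 over 364 genes up to 88523615 and of -0.21 over the 50 genes beyond 90296351, of which 3 rose and 17 fell. These 50 genes also had a median of -0.14 from day 11 to day 17 in KO and of -0.13 from day 17 to day 25 in WT. Windows on the other chromosomes reached medians as low as -0.27 in KO. The limits of these spans were also chosen after their values were seen.

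In the earlier step and in WT the 4 chromosomes showed no such medians. From day 11 to day 17 their KO medians were 0.04 (chromosome 1), -0.03 (8), 0.02 (11) and 0.00 (14). The difference between KO and WT on chromosome 1 was -0.07 at day 11, -0.06 at day 17 and 0.56 at day 25, and on chromosome 8 it was -0.05, -0.10 and 0.36. WT medians between day 17 and day 25 were -0.12, -0.03, -0.03 and -0.15 on the 4 chromosomes, where those of chromosomes 8 and 11 were the highest, against -0.40 to -0.06 on the 16 others. The libraries hold RNA and no DNA was measured.

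Single rises on these chromosomes thus include a shift that they share. Among the 15 named rises 7 lie there (*Trpa1*, *Clgn*, *Ppp3cc*, *Exoc3l*, *Inhbb*, *Ripk3* and *Vash2*), and among the 15 named falls only *Hand1*. All 7 exceeded the median of their chromosome by more than 1 log2 unit. When each library was centred within each chromosome, an alternative added after the values were seen, 881 genes rose and 885 fell. The germline list then had 11 rises, the naive list 6 and the ATF4 list 10, against 12, 5 and 11, while the trophoblast list had 9 falls, the p53 list 11 and the 2-cell list 6, as before. The germline median was 0.18 there instead of 0.42. The actin list had 5 falls and no rise.

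The same interval in WT cells served as a comparison. WT differs from KO in more than *Dnmt1*. The 6 tested Y-linked genes were at or below 0.203 RPKM in the 4 WT libraries and between 1.03 and 16.7 RPKM in the 4 KO libraries, so the lines also differed there. The 2 WT libraries of day 25 correlated least with those of the other groups (r between 0.892 and 0.951, against 0.947 to 0.967 between the others). In WT 2283 genes (19.9%) rose and 3850 (33.6%) fell, with a median of -0.14. Without centring the split was 3128 and 2756, and with centring on the upper quartile 3228 and 2715, so the balance of WT rises and falls depends on the scaling.

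In WT the change followed exon length. With the tested genes in 5 classes of equal size from short to long exons, the WT medians were -0.45, -0.23, -0.13, -0.00 and 0.12, and the KO medians 0.02, 0.04, 0.03, 0.04 and -0.01. Short, abundant genes fell together in WT, with 75 of 76 ribosomal protein genes, 60 of 62 histone genes, 64 of 71 respiratory chain genes and 9 of 13 mitochondrially encoded genes lower. The KO libraries showed no such gradient. The part of exon length in the differences between KO and WT given next was not tested.

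The difference between the KO and the WT change was higher than 0 for 2964 genes (25.9%) and lower for 1559 (13.6%), with a median of 0.15. Without centring these counts were 1964 and 2275, and with upper-quartile centring 1968 and 2358, so more genes were then lower than higher. Differences of single genes are read against this shift.

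**Figure D4:**
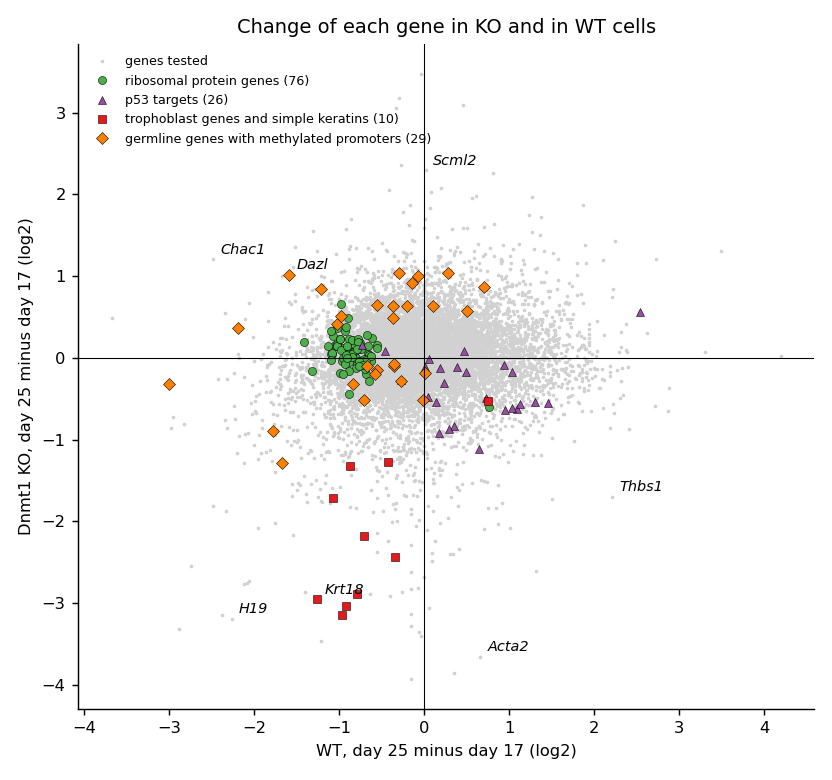
Log2 difference of day 25 minus day 17 in *Dnmt1* KO (y axis) against that in WT (x axis) for each of 11458 tested genes (grey points), with 4 gene lists and 7 genes marked. Of the trophoblast genes with keratins 9 of 10 lie below -1 in KO, p53 targets lie mostly below 0 in KO and above 0 in WT, germline genes lie on both sides of 0 in KO and mostly below 0 in WT, and ribosomal protein genes lie around 0.07 in KO and -0.87 in WT.

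Among the named genes *Acta2* differed most in the negative direction (-4.32, SE 0.44, limma adjusted p 0.000299), since it had 0.398 and 0.207 RPKM at day 17 and 0.673 and 0.517 RPKM at day 25 in WT and fell only in KO. *Thbs1* ran in opposite directions, from 2.11 and 1.84 to 0.531 and 0.521 RPKM in KO and from 0.423 and 0.541 to 2.89 and 2.91 RPKM in WT (difference -3.91, limma adjusted p 0.000693). So did *Dsp*, desmoplakin of epithelial junctions, from 2.16 and 2.12 to 0.597 and 0.529 RPKM in KO and from 0.428 and 0.544 to 1.79 and 1.70 RPKM in WT (-3.24, limma adjusted p 0.000493). *Hspg2*, the basement membrane protein perlecan, had 3.70 and 2.95 RPKM at day 17 and 2.62 and 1.70 RPKM at day 25 in KO and went from 1.71 and 2.37 to 16.1 and 14.7 RPKM in WT (-3.31), and its KO libraries of day 11 differed widely, with 2.73 and 12.5 RPKM. *Zscan4f* (-3.30) and *Sct*, the hormone secretin (-3.11), completed the 6 largest negative differences under the same rule. *Sct* had 8.47 and 8.03 RPKM at day 17 and 0.629 and 1.22 RPKM at day 25 in KO, and its difference lost the call without the first KO library of day 25 (limma adjusted p 0.0524).

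In the positive direction *Chac1* led (3.69, SE 0.24, limma adjusted p 9.9e-05), with a rise in KO and a fall from 7.199 and 6.72 to 1.46 and 1.17 RPKM in WT. *Trh*, thyrotropin-releasing hormone, went from 27.7 and 32.5 to 40.4 and 45.7 RPKM in KO and from 35.0 and 29.6 to 6.71 and 7.35 RPKM in WT (2.88). *Nupr1*, a stress gene (2.73), *Fam111a* (2.67) and *Hist1h1t*, the linker histone of the testis (2.65), also rose in KO and fell in WT. Day 17 was a low point in KO for *Nupr1* (day 11 3.44 and 2.29, day 17 0.699 and 0.587, day 25 1.03 and 1.09 RPKM). The same held for *Hist1h1t* (9.66 and 5.34, 3.73 and 3.74, and 8.06 and 8.04 RPKM in that order). *Fmr1nb*, a testis gene of the X chromosome, had 16.0 and 17.9 RPKM at day 17 and 12.5 and 14.1 RPKM at day 25 in KO, not past the test, and fell from 1.62 and 1.25 to 0.107 and 0.118 RPKM in WT (2.69).

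By list, p53 targets moved in opposite directions. In WT 15 of 26 rose and 2 fell (median 0.43), and the difference was negative for 16 and positive for 1 (median -1.06). *Cdkn1a* went from 5.06 and 5.45 to 11.8 and 11.06 RPKM in WT, so that its KO and WT levels met at day 25 (difference -1.59, limma adjusted p 9.9e-05). *Mdm2* went from 9.59 and 10.9 to 25.09 and 24.0 RPKM in WT (-1.73) and ended above KO. The actin list was likewise opposed, with 8 rises and 2 falls in WT and 11 negative differences of 16. Of the trophoblast genes and keratins 7 of 10 fell in WT too (median -0.83), and the difference was negative for 8 (median -1.59).

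Germline genes gave differences of the opposite sign. In WT 13 of 29 fell and 2 rose (median -0.36), and the difference was positive for 14 and negative for none (median 0.76). *Dazl* fell from 1.48 and 1.18 to 0.453 and 0.404 RPKM in WT, against the rise in KO (difference 2.60, SE 0.22, limma adjusted p 9.9e-05). *Sohlh2* fell from 1.41 and 0.922 to 0.732 and 0.608 RPKM in WT (2.56) and *Tex11* from 1.48 and 1.35 to 0.634 and 0.631 RPKM (2.05). For *Dnmt3a* the rise in KO met a fall in WT from 8.17 and 8.25 to 4.67 and 4.79 RPKM (1.99, limma adjusted p 9.9e-05), and both genotypes had like levels at day 25. ATF4 genes fell in 17 of 29 cases in WT, and 18 differences were positive and 1 negative (median 0.87).

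For imprinted genes the differences split into 8 positive and 10 negative of 34. *H19* fell in both genotypes, in WT from 13.1 and 13.7 to 3.14 and 2.95 RPKM, and the difference was -0.93 (limma adjusted p 0.00343). *Peg10* had 35.0 and 56.5 RPKM at day 17 and 65.0 and 65.8 RPKM at day 25 in WT (-2.22, limma adjusted p 0.00304) and *Plagl1* went from 0.171 and 0.235 to 0.936 and 0.607 RPKM there, against a fall in KO (-2.26).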

How the data were processed

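Total RNA-seq libraries depleted of ribosomal RNA were sequenced by the study from ESCs after induced deletion of *Dnmt1* and from WT controls. Reads were trimmed with Trim Galore, mapped to NCBIM37 with TopHat and quantified per gene in SeqMonk. The submitters' processing notes give Trim Galore 0.3.5 and TopHat2 2.0.11, whereas the study's list of resources names another version of Trim Galore. The deposited table gives linear RPKM over exons, computed by the authors for each library. The methods name log2 values per mega-read, whereas the values in the table are linear and scaled by length. Between 99.6% and 99.8% of values below 20 reads in the 4 KO libraries came within 0.1 of a whole read.

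Values were taken as log2(RPKM + 0.1), with each library centred on its median. Genes were tested where at least 2 of the 12 WT and KO libraries of days 11, 17 and 25 exceeded 1 RPKM. 11458 of 26127 rows passed and 14669 did not. Group means of 6 groups were fitted with limma 3.58.1 (R 4.3.3, eBayes with trend, 6 residual degrees of freedom), p-values were adjusted by Benjamini-Hochberg over all genes tested, and genes were called at an adjusted p below 0.05. On data simulated for the KO comparison (10824 genes, 200 changed), 212 genes were called, all changed genes were recovered, and 5.66% of calls were false. Whether these shares hold for small differences and for the unequal spread of the measured groups was not tested.

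The named genes are *Dnmt1*, the 15 largest rises and the 15 largest falls among called genes whose libraries of the 2 days did not overlap, with a mean of at least 1 RPKM on the higher day and no gene model symbol, the 6 largest differences between genotypes in each direction, and members of 40 gene lists (964 tested genes). The members and lists were chosen with earlier results of these data known. Lists are described by counts and medians with no set test, and chromosome medians with no test, since 2 libraries against 2 allow no small permutation p. Alternatives were no centring, upper-quartile centring, a pseudocount of 1, other filters, other libraries in the fit, recovered reads with limma voom, a replicate block, single libraries left out and, chosen after seeing the data, centring within each chromosome. Counting error at the depth of about 30 mega-reads is 3 reads for a value of 0, or about 0.1 RPKM for a gene with 1 kilobase of exon.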

Additional observations from a re-analysis of the deposited data

Results flagged for a closer look

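Results are listed here because the change from day 17 to day 25 differed between *Dnmt1* KO and WT cells in the limma test of the difference. Groups of 2 libraries were too small to be searched for outlying libraries. Over all genes the difference was called higher in KO for 2964 genes and lower for 1559. All values that follow are log2 changes in KO minus log2 changes in WT.

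Among genes that rose in KO, the difference was 2.27 for *Scml2*, 1.87 for *Hal*, 2.47 for *Trpa1*, 1.37 for *Clgn*, 1.39 for *Ppp3cc*, 2.03 for *Tex12*, 1.76 for *Cpn1*, 2.56 for *Sohlh2*, 1.80 for *Inhbb*, 1.13 for *Ripk3* and 1.08 for *Vash2*. The largest positive differences of named genes were those of *Chac1* with 3.69, *Trh* with 2.88, *Nupr1* with 2.73, *Fmr1nb* with 2.69, *Fam111a* with 2.67 and *Hist1h1t* with 2.65.

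Among genes that fell in KO, the difference was -4.32 for *Acta2*, -2.26 for *Sfmbt2*, -3.30 for *Zscan4f*, -0.93 for *H19*, -2.19 for *Plac1*, -0.77 for *Rhox9*, -3.11 for *Sct*, -2.12 for *Krt7*, -1.70 for *Krt18*, -2.51 for *S100a13*, -2.10 for *Hand1*, -2.61 for *Zscan4c*, -2.67 for *Serpinb9e* and -2.46 for *Dub1a*. *Thbs1* with -3.91, *Hspg2* with -3.31 and *Dsp* with -3.24 were the other large negative differences. *Dnmt1* itself differed by -0.80, through its rise in WT.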

How the results depend on the processing

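The size of the called sets depended on how many libraries set the spread. In KO, 1895 genes were called higher in a fit of the 8 libraries of days 17 and 25, and 2459 higher and 1909 lower with only the groups compared. With 1 library left out, which leaves its group with a lone sample assumed to vary like the other groups, between 435 and 516 were called higher and between 450 and 534 lower. In WT these ranges were 1318 to 2073 and 2376 to 3605, and for the difference of the changes 1742 to 2935 higher and 823 to 1604 lower. Without the filter 5839 genes were called lower in WT. For the difference, 1964 genes were higher without centring, and 1968 higher and 2358 lower with upper-quartile centring. No called change of a named gene reversed direction in any setting run, which leaves out *Dnmt1*, as it was not called. Of 438 list medians 366 moved by less than the spread between pairs of libraries where none was left out. Of 446 values of named genes under settings that left out no library 445 were on the same side of the threshold, the exception being *Rhox10* without the filter. Of 220 with a library left out 205 were, and the others were *Rhox10* and *Tex12* with each of 4, *Cpn1* and *Nmi* with 3 of 4, and the *Sct* difference with 1. With a replicate block, 1231 genes were called higher and 1062 lower in KO, 2285 and 3860 in WT, and 3016 and 1615 for the difference. Same-numbered libraries did not deviate together (r -0.003 between KO days, -0.117 between WT days, 0.049 between KO and WT at day 25, -0.172 at day 17). These values showed no pairing by number, but with groups of 2 they cannot exclude it. Each day has 2 libraries, and genes near 3 reads per library are set by counting error.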
